A study of Mus musculus with 12 samples.

Results

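The S100 genes encode small calcium-binding proteins with a pair of EF-hand motifs, most of which work as dimers. The 9 reported here are *S100a1*, *S100a4*, *S100a6*, *S100a8*, *S100a9*, *S100a10*, *S100a11*, *S100a13* and *S100a16*, taken by symbol from the deposited table after its transcript rows were added up per gene. They are 9 of the 17 S100 symbols in that table, which holds 33641 gene symbols, and all 9 were among the 13158 genes tested, those that reached 1 TPM in 3 or more of the 12 libraries. TPM is transcript abundance per length, scaled to a fixed total per library.

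When calcium binds, most S100 proteins expose a surface that grips a target protein inside the cell, such as an annexin, a myosin or a calcium channel. Several are also released without a signal peptide and act on cell-surface receptors, in particular the receptor for advanced glycation end products and Toll-like receptor 4. In the heart *S100a1* is known as the abundant form of cardiomyocytes, where it binds the ryanodine receptor and the calcium pump of the sarcoplasmic reticulum. *S100a4* is best known from fibroblasts and macrophages, *S100a8* and *S100a9* from neutrophils and monocytes, and *S100a6*, *S100a10* and *S100a11* as annexin partners in many cell types.

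The libraries were made from myocardium of male C57BL/6 WT mice, with 3 libraries in each of 4 groups: sham surgery with vehicle, sham surgery with prednisone, myocardial infarction (MI) with vehicle, and MI with prednisone. Prednisone, a synthetic glucocorticoid, was injected intraperitoneally at 1 mg/kg once a week at lights-on, from 2 weeks after surgery and for 6 weeks, and the other mice received vehicle weekly over the same period. Mice were about 10 weeks old when injected and about 16 weeks old by the sample labels, and tissue was collected 24 hours after the last dose. The labels name the tissue as myocardium without a region of the heart, so infarct, border and remote muscle cannot be told apart. In bulk tissue, fewer cells of a type and less RNA per cell cannot be told apart either. Sequencing depth cannot be read from TPM and is unknown here.

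There were 3 libraries that stood apart before any S100 gene was considered. The summed TPM of 12 airway and lung epithelial genes, a list chosen after the data were seen, was 7505 in MI vehicle replicate 3, 10939 in MI prednisone replicate 2 and 1552 in MI prednisone replicate 3. It was between 0.505 and 442 in the other 9 libraries, and only 1.25 in MI vehicle replicate 2 and 7.25 in MI prednisone replicate 1. Mitochondrially encoded RNA took from 21.6% to 42.0% of TPM, which moves the values of all other genes in a library. The summed TPM of 8 cardiomyocyte markers was 15125 to 24293 in every library. Counts of called genes below are also given without the libraries rich in airway RNA.

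*S100a1* was the most abundant S100 gene in each of the 12 libraries, with a mean over all of them of 737 TPM. It was followed by *S100a6* (143 TPM), *S100a11* (141 TPM) and *S100a10* (98.8 TPM), then by *S100a16* (57.6 TPM), *S100a13* (41.4 TPM) and *S100a4* (34.6 TPM). The calprotectin pair came last, *S100a9* at 11.9 TPM and *S100a8* at 7.34 TPM, and these took the 8th and 9th place in each library. The places in between were less settled. *S100a6* and *S100a11* exchanged places from library to library, *S100a11* being anywhere from 2nd to 4th, and *S100a4* ranged from 5th to 7th.

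**Figure D1:**
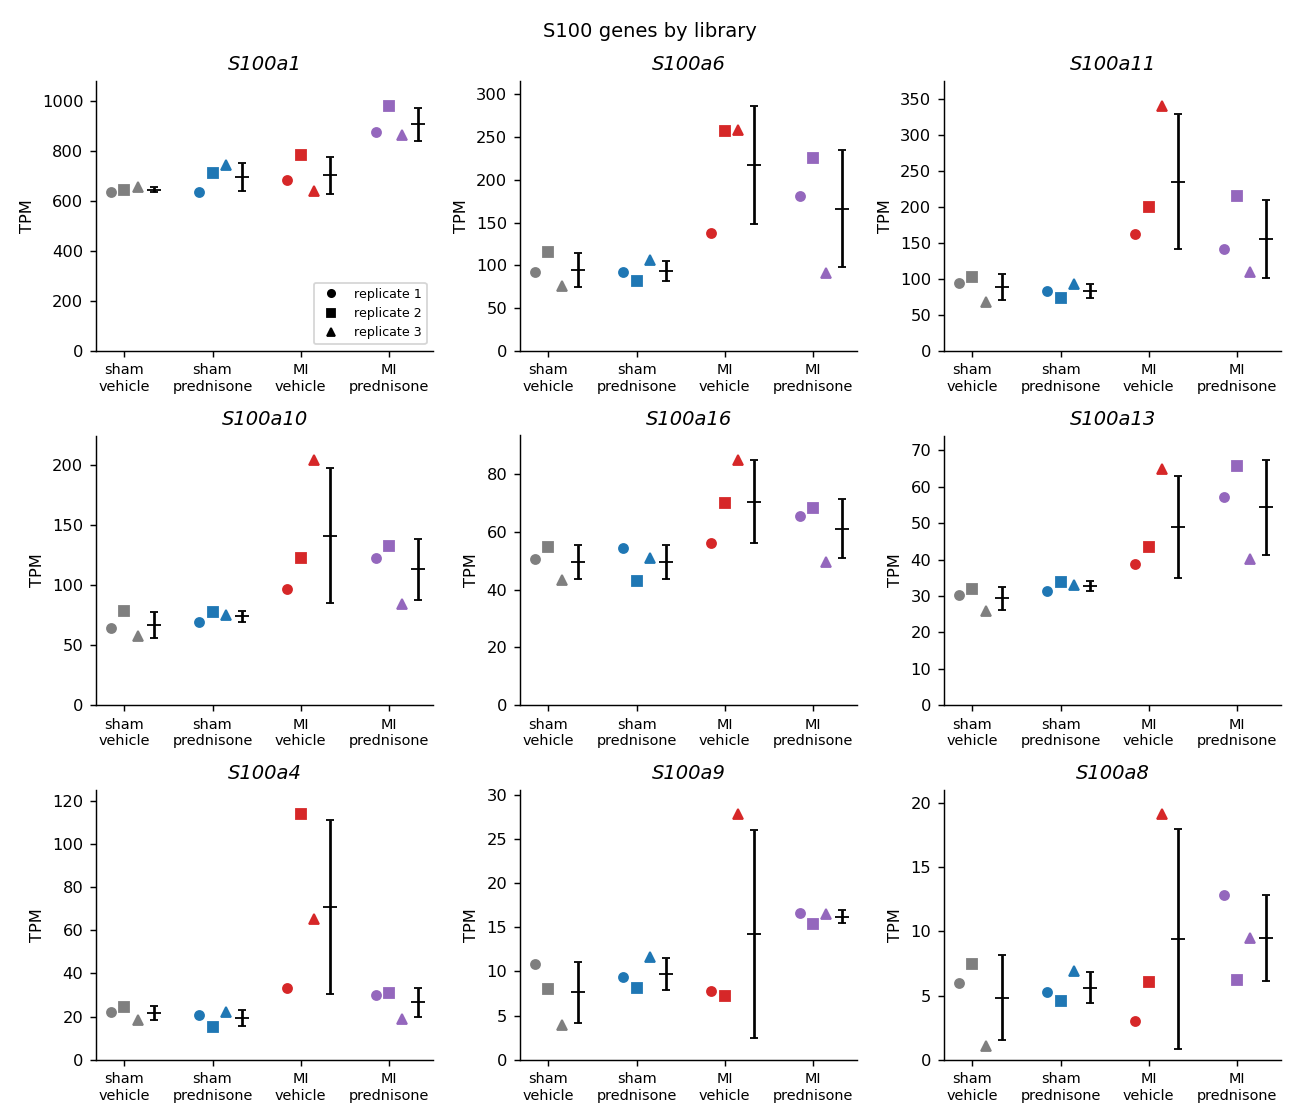
TPM of the 9 S100 genes in each library, by group (horizontal axis), with replicates 1 to 3 as circles, squares and triangles and the group mean with SD (n = 3) as the black bar at the right of each group. *S100a1* lies between 634 and 981 TPM throughout, and *S100a4* is highest in the 3 MI vehicle libraries, at 33.4 to 113.7 TPM.

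The 9 genes together held 949.6 to 1142 TPM in the 6 sham libraries. In MI vehicle the sum was 1219.8, 1606 and 1704 TPM, and in MI prednisone it was 1504, 1741 and 1281 TPM, so that each MI library lay above each sham library. The share of *S100a1* in this sum was 60.3% to 69.1% in sham libraries. It was 56.0%, 48.9% and 37.4% in MI vehicle replicates 1 to 3, below all sham values, and 58.2%, 56.4% and 67.2% in MI prednisone.

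All 9 genes lie on chromosome 3 (GRCm38, GENCODE M21) within 3.05 Mb, among 14 S100 genes of that chromosome. *S100a1* (90511034 to 90514392, minus strand) and *S100a13* (90514435 to 90524581, plus strand) stand head to head, with 0.043 kb between them. They are followed by *S100a16* (90537254 to 90543151, plus), *S100a4* (90603771 to 90606045, plus), *S100a6* (90612882 to 90624181, plus), *S100a8* (90668978 to 90670035, plus) and *S100a9* (90692632 to 90695721, minus). *S100a11* (93520488 to 93526287, plus) and *S100a10* (93555080 to 93564643, plus) form a separate pair farther along the chromosome. Order along the chromosome did not follow abundance, since *S100a8* at 7.34 TPM and *S100a6* at 143 TPM are neighbours among the 9.

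RefSeq promoter windows (GRCm38.p6, 250 bases before to 50 after the annotated start) were at hand for 8 of the 9 genes. The window of *S100a13* (chr3:90514185-90514484, plus strand) is shown because 204 of its bases, in capitals, are also in the window of *S100a1*, which is read from the other strand. The window of *S100a11* (chr3:93520246-93520545, plus strand) is shown because *S100a11* kept its call in MI under the most alternatives, and its capitals mark 2 copies of the AP-1 motif TGANTCA. The window of *S100a4* (chr3:90603520-90603819, plus strand) is shown because *S100a4* was called higher in MI with vehicle and lower with prednisone within MI. Those comparisons share the MI vehicle libraries. The capitals in this window mark a TATA box (TATAAA).
S100a13: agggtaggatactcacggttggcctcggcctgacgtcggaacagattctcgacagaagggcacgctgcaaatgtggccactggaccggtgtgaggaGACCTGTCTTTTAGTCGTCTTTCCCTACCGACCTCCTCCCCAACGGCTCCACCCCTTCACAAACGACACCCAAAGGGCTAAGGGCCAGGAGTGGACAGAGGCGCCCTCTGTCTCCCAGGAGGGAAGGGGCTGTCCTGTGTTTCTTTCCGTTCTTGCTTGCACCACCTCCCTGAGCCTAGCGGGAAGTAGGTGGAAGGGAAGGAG
S100a11: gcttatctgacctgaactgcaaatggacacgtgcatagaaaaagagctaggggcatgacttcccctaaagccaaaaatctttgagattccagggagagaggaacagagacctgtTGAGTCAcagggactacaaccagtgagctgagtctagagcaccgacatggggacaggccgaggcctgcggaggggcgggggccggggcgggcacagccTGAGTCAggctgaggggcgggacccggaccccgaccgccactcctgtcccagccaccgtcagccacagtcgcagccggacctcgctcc
S100a4: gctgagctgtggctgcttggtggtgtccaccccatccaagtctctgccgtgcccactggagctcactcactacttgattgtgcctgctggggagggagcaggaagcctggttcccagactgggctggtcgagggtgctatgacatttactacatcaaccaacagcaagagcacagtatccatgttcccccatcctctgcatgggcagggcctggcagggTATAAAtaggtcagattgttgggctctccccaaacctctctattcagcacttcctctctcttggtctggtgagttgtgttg

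The motifs were chosen after the data were seen and searched on both strands. AP-1 was found in the window of *S100a11* and in the second window of *S100a16*. With 1 window taken for each of 27025 genes, 7.93% had it. TATAAA was found for 3 of the 8 genes, *S100a4*, *S100a8* and *S100a9*, against 14.2% of all genes. The C/EBP motif TTGCNNAA was found for *S100a9* alone (10.8% of all genes), and the glucocorticoid receptor hexamer AGAACA for *S100a6* alone (19.0% of all genes). The *S100a6* window covers the start of transcript S100a6-201 (90612882). It does not reach the start of S100a6-203 (90613305), which carried 65.9% of *S100a6* TPM on average and whose promoter was not searched. A match is a description of the letters in these windows, and factor binding was not measured.

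MI was first compared with sham in vehicle-treated mice. By limma, 5 of the 9 genes were called higher in MI (adjusted p under 0.05 over all genes tested) and none lower: *S100a4*, *S100a11*, *S100a6*, *S100a10* and *S100a13*. Of all genes tested, 15.1% were called higher in this comparison. *S100a16*, *S100a8*, *S100a9* and *S100a1* were not called. The median change of the 9 genes was 0.74 on the log2(TPM + 1) scale, on which all changes below are given, beside 0.39 over all genes and 0.35 over the 1765 tested genes with transcripts shorter than 1000 bases, a class to which all 9 belong.

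*S100a4*, the fibroblast and macrophage form that binds non-muscle myosin, had the largest change. Its values were 22.2, 24.5 and 18.3 TPM in sham vehicle replicates 1 to 3 and 33.4, 113.7 and 65.4 TPM in MI vehicle replicates 1 to 3. All MI values lay above all sham values, but the MI values were spread widely. The log2 change was 1.51 (SE 0.36, limma adjusted p = 0.0232), and 1.12 relative to the median gene. MI vehicle replicate 2, which had the highest *S100a4*, was among the libraries with the least airway RNA. With the 2 libraries richest in airway RNA left out, the change was 1.48 and not called (limma adjusted p = 0.0605). Any part of airway RNA in the change was not tested.

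*S100a11*, a partner of annexin A1, was at 94.9, 102 and 67.7 TPM in sham and 163, 201 and 342 TPM in MI. The groups did not overlap, and replicate 3 was the highest MI library. The log2 change was 1.35 (SE 0.29, limma adjusted p = 0.0178), a 2.66-fold difference of the group means. *S100a10*, the subunit that joins annexin A2 at the membrane and does not itself respond to calcium, was at 64.0, 78.8 and 57.5 TPM in sham and 96.7, 122 and 204 TPM in MI. Here too the groups did not overlap, replicate 3 was highest, and the log2 change was 1.01 (SE 0.25, limma adjusted p = 0.0264).

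*S100a6*, or calcyclin, which rises in growing cells, was at 91.6, 116 and 76.2 TPM in sham and 138, 257 and 258 TPM in MI. All MI values were higher, with replicates 2 and 3 nearly equal. The log2 change was 1.16 (SE 0.33, limma adjusted p = 0.0392). *S100a13*, which takes part in the release of fibroblast growth factor 1, was at 30.3, 32.0 and 25.8 TPM in sham and 38.7, 43.4 and 64.9 TPM in MI. The groups did not overlap, and the log2 change of 0.69 (SE 0.20, limma adjusted p = 0.0449) was 0.30 relative to the median gene.

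*S100a16*, a widely expressed member, was at 50.7, 54.6 and 43.3 TPM in sham and 56.1, 70.1 and 84.8 TPM in MI. Its groups did not overlap, yet its log2 change of 0.48 (95% interval 0.10 to 0.86) missed the threshold (limma adjusted p = 0.0699) and was 0.09 relative to the median gene. Groups that did not overlap, with MI higher, were found for 6 of the 9 genes and for 40.8% of all genes.

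*S100a1* was at 634, 644 and 656 TPM in sham and 683, 785 and 638 TPM in MI. The groups overlapped, and the log2 change was 0.12 (95% interval -0.11 to 0.34, limma adjusted p = 0.365). Relative to the median gene this was -0.27, and the sign turned to -0.33 after median-ratio rescaling, to -0.28 after a correction for transcript length and to -0.12 after mitochondrial, nuclear-copy and globin rows were removed. The other 8 genes had positive changes under each of these settings.

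The calprotectin genes did not pass the test, and 1 library set their means. *S100a8* was at 5.96, 7.45 and 1.11 TPM in sham and 3.04, 6.07 and 19.1 TPM in MI (log2 change 0.74, limma adjusted p = 0.326). *S100a9* was at 10.9, 8.05 and 3.93 TPM in sham and 7.74, 7.17 and 27.8 TPM in MI (log2 change 0.65, limma adjusted p = 0.247). In both genes MI vehicle replicate 3 was the highest of all 12 libraries, while replicates 1 and 2 lay within the sham range. With that library left out along with MI prednisone replicate 2, the changes were 0.10 and 0.06.

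The calls differed in how well they held. Over 24 alternatives *S100a11* was called in 21, *S100a10* in 17, *S100a4* in 14, and *S100a6* and *S100a13* in 7 each. When only these 6 libraries were fitted, no member and 2 genes in all were called (limma adjusted p = 0.102 for *S100a11*). No member was called without sham vehicle replicate 1 or without sham vehicle replicate 3, where *S100a11* had a limma adjusted p of 0.0623 and 0.0834. *S100a4* and *S100a10* also lost the call without MI vehicle replicate 3 (limma adjusted p = 0.0557 for each). *S100a6* and *S100a13* lost it when any library but MI vehicle replicate 1 or MI prednisone replicates 2 and 3 was left out, with limma adjusted p from 0.0519 to 0.144 and from 0.0544 to 0.154. After median-ratio rescaling, under which 490 genes were called higher and 489 lower in place of 1981 and 119, *S100a10* and *S100a11* were called, and *S100a10* (0.57), *S100a6* (0.72) and *S100a13* (0.26) were smaller by more than 1.5 times. The same 2 were called with both MI libraries richest in airway RNA left out. Leaving out all 3 such libraries gave the same changes, such as 1.01 for *S100a6* and 0.47 for *S100a13*. The added library belongs to MI prednisone and leaves that group with 1 library, so this fit is no further check of the comparison.

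**Figure D2:**
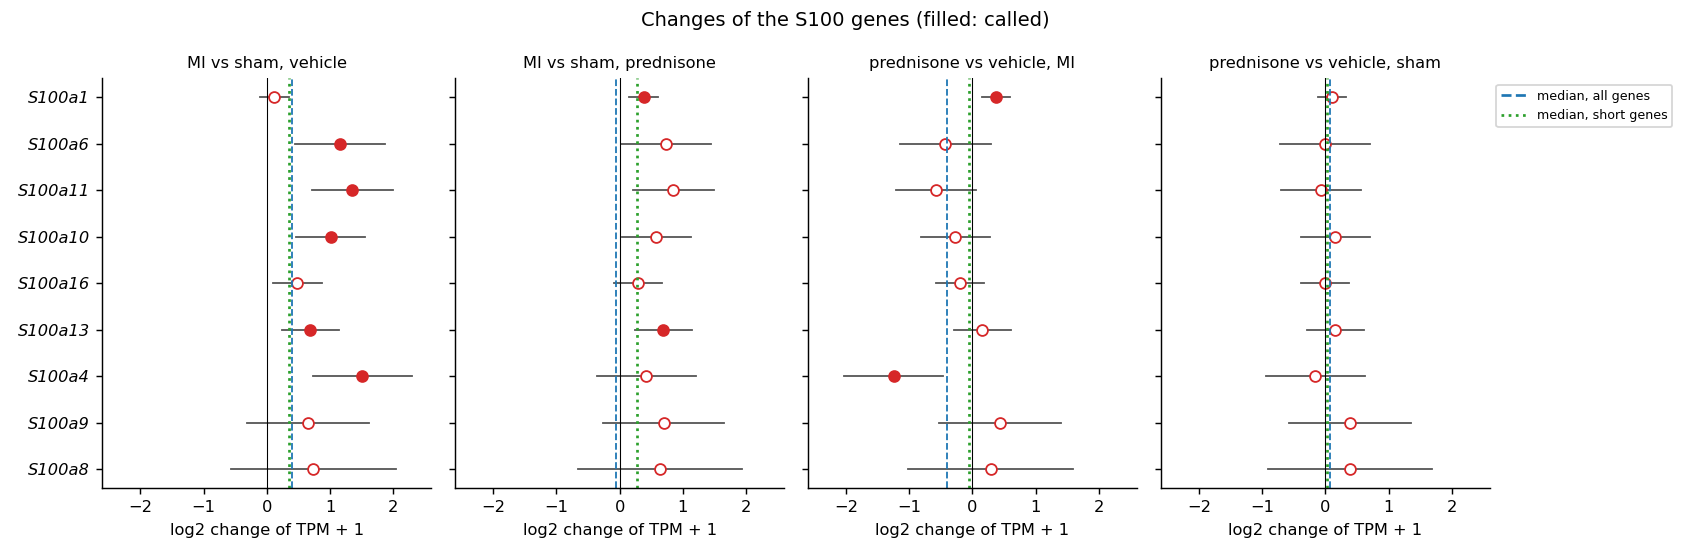
Log2 change (horizontal axis, log2(TPM + 1)) of each S100 gene in 4 comparisons, with 95% intervals, filled where limma called it, and vertical lines at the median of all genes (dashed) and of genes shorter than 1000 bases (dotted). In MI against sham with vehicle, 5 of the 9 points are filled, and in prednisone against vehicle in sham none is.

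MI was compared with sham in prednisone-treated mice next. *S100a1* and *S100a13*, the head-to-head pair, were the 2 genes called higher, and none was called lower. Of all genes, 2.73% were called higher here and the median gene moved by -0.06. All 9 changes were positive in this comparison, with a median of 0.63, and stayed so under median-ratio rescaling, the length correction and without mitochondrial, nuclear-copy and globin rows. Genes shorter than 1000 bases had a median of 0.27.

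*S100a1* was at 635, 710.2 and 742 TPM in sham prednisone and 876, 981 and 862 TPM in MI prednisone. Its MI values were higher than in any of the other 9 libraries. The log2 change was 0.38 (SE 0.10, limma adjusted p = 0.0282), a 1.30-fold difference of means. *S100a13* was at 31.3, 33.9 and 33.0 TPM in sham and 57.2, 65.7 and 40.2 TPM in MI. No values overlapped, and the log2 change of 0.69 (SE 0.20, limma adjusted p = 0.0416) equalled that with vehicle, and the comparisons share no library.

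The annexin partners pointed the same way without being called in the main fit. *S100a11* was at 82.9, 73.0 and 93.5 TPM in sham and 142, 215 and 109.6 TPM in MI, with a log2 change of 0.85 (95% interval 0.21 to 1.49, limma adjusted p = 0.0693). *S100a10* was at 69.2, 78.0 and 75.3 TPM in sham and 122, 133 and 84.2 TPM in MI, with a log2 change of 0.58 (limma adjusted p = 0.143). In both, MI did not overlap sham and MI prednisone replicate 3 was closest to it. *S100a11* was called with the length correction (0.58, limma adjusted p = 0.0338), where *S100a10* was not (limma adjusted p = 0.134). Without mitochondrial, nuclear-copy and globin rows both were called (0.77 and 0.50, limma adjusted p = 0.0209 and 0.0485). *S100a1* was called in neither setting. With the 2 libraries richest in airway RNA left out, neither *S100a11* nor *S100a10* was called (limma adjusted p = 0.0592 and 0.111).

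*S100a6* was at 92.4, 81.8 and 105.7 TPM in sham and 181, 226 and 91.4 TPM in MI (log2 change 0.74, limma adjusted p = 0.152). Its replicate 3 fell inside the sham range, as did that of *S100a16*, which was at 54.2, 42.9 and 51.1 TPM in sham and 65.6, 68.1 and 49.4 TPM in MI (log2 change 0.29, limma adjusted p = 0.284). *S100a4* was at 20.7, 15.4 and 22.0 TPM in sham and 30.2, 30.8 and 18.9 TPM in MI (log2 change 0.42, limma adjusted p = 0.465). For these 3 genes MI prednisone replicate 3, one of the libraries rich in airway RNA, had the lowest value of its group.

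*S100a9* was at 9.38, 8.09 and 11.6 TPM in sham and 16.7, 15.3 and 16.5 TPM in MI. The MI values lay close together and above each of the 6 sham libraries, but the test, which shares its spread over all groups, put the difference at 0.70 (SE 0.44, limma adjusted p = 0.312). With only the compared groups fitted *S100a9* was called (0.70, SE 0.13, limma adjusted p = 0.0147). *S100a8* was at 5.31, 4.56 and 6.93 TPM in sham and 12.8, 6.19 and 9.48 TPM in MI, and the groups overlapped (log2 change 0.63, limma adjusted p = 0.511). Non-overlap with MI higher was found for 5 of the 9 genes, *S100a1*, *S100a9*, *S100a10*, *S100a11* and *S100a13*, and for 12.9% of all genes.

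The call of *S100a1* ended under 10 of 24 alternatives, among them the length correction (0.11, limma adjusted p = 0.777), median-ratio rescaling (0.49, limma adjusted p = 0.0804), and leaving out any 1 of sham prednisone replicates 1 and 2 or MI prednisone replicates 1 and 2 (0.32 to 0.41, limma adjusted p from 0.0711 to 0.117). That of *S100a13* ended under 11, among them leaving out any 1 sham library or MI prednisone replicate 1 or 2 (0.54 to 0.71, limma adjusted p from 0.0554 to 0.167). After median-ratio rescaling 5 genes were called, *S100a6*, *S100a10*, *S100a11*, *S100a13* and *S100a16*, and all genes split into 1536 higher and 1881 lower in place of 359 and 1854. *S100a1* and *S100a13* were also the genes called with both libraries richest in airway RNA left out, and *S100a10*, *S100a11* and *S100a13* with all 3 left out, a fit in which MI prednisone is replicate 1 alone and is assumed to vary like the other groups.

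Prednisone was compared with vehicle within MI, a comparison that shares the MI vehicle libraries with the first and the MI prednisone libraries with the second. *S100a1* was called higher with prednisone and *S100a4* lower, and the other 7 genes were not called. Over all genes 2.5% were called higher and 34.9% lower, and the median gene moved by -0.41. Genes shorter than 1000 bases had a median of -0.05 and the 9 S100 genes one of -0.19.

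*S100a1*, at 683, 785 and 638 TPM with vehicle and 876, 981 and 862 TPM with prednisone, differed by 0.37 (SE 0.10, limma adjusted p = 0.0172). The groups did not overlap, which held with prednisone higher for this 1 gene of the 9 and for 3.59% of all genes. *S100a4*, at 33.4, 113.7 and 65.4 TPM with vehicle and 30.2, 30.8 and 18.9 TPM with prednisone, differed by -1.25 (SE 0.36, limma adjusted p = 0.0196). Of its prednisone values, the lowest lay inside the range of the sham libraries and the others above their highest, 24.5 TPM. The groups did not overlap with prednisone lower for this gene alone of the 9, and for 42.6% of all genes.

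The other genes gave changes on either side of zero. The most negative was *S100a11* (-0.58, 95% interval -1.21 to 0.06, limma adjusted p = 0.135), and *S100a6* (-0.43), *S100a10* (-0.27) and *S100a16* (-0.19) were also below zero. After median-ratio rescaling *S100a6*, *S100a10* and *S100a16* turned positive, at 0.03, 0.19 and 0.26. *S100a9* (0.43), *S100a8* (0.29) and *S100a13* (0.15) were above zero.

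Neither call held throughout. *S100a1* lost its call with the length correction (0.50, limma adjusted p = 0.137), with only these 6 libraries fitted (limma adjusted p = 0.124), without MI prednisone replicate 2 (0.31, limma adjusted p = 0.0584), and with the 2 or the 3 libraries richest in airway RNA left out (0.25 and 0.26, limma adjusted p = 0.111 and 0.169). *S100a4* lost it after median-ratio rescaling (-0.80, limma adjusted p = 0.102), with the length correction (-1.02, limma adjusted p = 0.0981), with only these 6 libraries (limma adjusted p = 0.0981), without MI prednisone replicate 3 (-1.02, limma adjusted p = 0.0706), and with the 2 or the 3 airway-rich libraries left out (-1.34 and -1.01, limma adjusted p = 0.0594 and 0.234). With 2 of those libraries left out *S100a9* was called higher with prednisone (1.06, limma adjusted p = 0.0428), and with 3 left out *S100a13* was (0.47, limma adjusted p = 0.0490), that fit resting on a lone MI prednisone library assumed to vary like the rest. After median-ratio rescaling *S100a1* was at 0.83 (limma adjusted p = 0.00988), more than 1.5 times its 0.37, *S100a13* was called beside it (0.60, limma adjusted p = 0.00803), and all genes split into 1917 higher and 1870 lower in place of 329 and 4588.

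In sham mice prednisone changed none of the 9 genes by this test. None was called by limma, the adjusted p was 1 for each, and none had an unadjusted p under 0.05. Of all genes, 0.114% were called. The log2 changes ran from -0.16 for *S100a4* to 0.39 for *S100a9* and *S100a8*, with 95% intervals as narrow as -0.12 to 0.33 for *S100a1* and as wide as -0.91 to 1.69 for *S100a8*. The groups overlapped for all 9.

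The interaction asks whether the prednisone effect differed between MI and sham. No S100 gene was called for it by limma, and none had an unadjusted p under 0.05, while 21.3% of all genes were called, 71 of them positive and 2726 negative (674 and 649 after median-ratio rescaling). That of *S100a4* was -1.08 (95% interval -2.19 to 0.02, limma adjusted p = 0.137), and that of *S100a1* was 0.26 (95% interval -0.06 to 0.58, limma adjusted p = 0.202). After median-ratio rescaling they were -0.55 (limma adjusted p = 0.490) and 0.81 (limma adjusted p = 0.0758), so which of the 2 was larger depended on scaling. So for neither gene called within MI was the effect shown to differ from that in sham. Without MI vehicle replicate 1, *S100a4* was called for the interaction (-1.53, limma adjusted p = 0.0132). With 2 or 3 airway-rich libraries left out no S100 gene was called for it, nor for prednisone in sham, and *S100a4* was at -1.18 (limma adjusted p = 0.185) and -0.85 (limma adjusted p = 0.412).

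Transcripts behind these gene values were also inspected. *S100a11* and *S100a13* have 1 transcript each in the table, and a main transcript carried 99.1% of *S100a1*, 96.9% of *S100a4* and 86.1% of *S100a9* on average. *S100a6* was divided among S100a6-203 (65.9% of its TPM on average, 55.6% to 79.2% over libraries), S100a6-201 (23.9%), which starts farther upstream, and the intron-retaining S100a6-202 (9.73%). S100a6-203 was at 76.7, 180.1 and 153 TPM in MI vehicle, where each value was higher than the 45.8 to 72.6 TPM of the sham libraries. *S100a16* was spread over S100a16-202 (34.9%), S100a16-201 (29.6%) and S100a16-204 (27.2%). S100a16-204 was at 27.1 and 31.6 TPM in MI vehicle replicates 2 and 3, beside 6.21 to 19.0 TPM in the other 10 libraries, a difference for which no test was made.

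**Figure D3:**
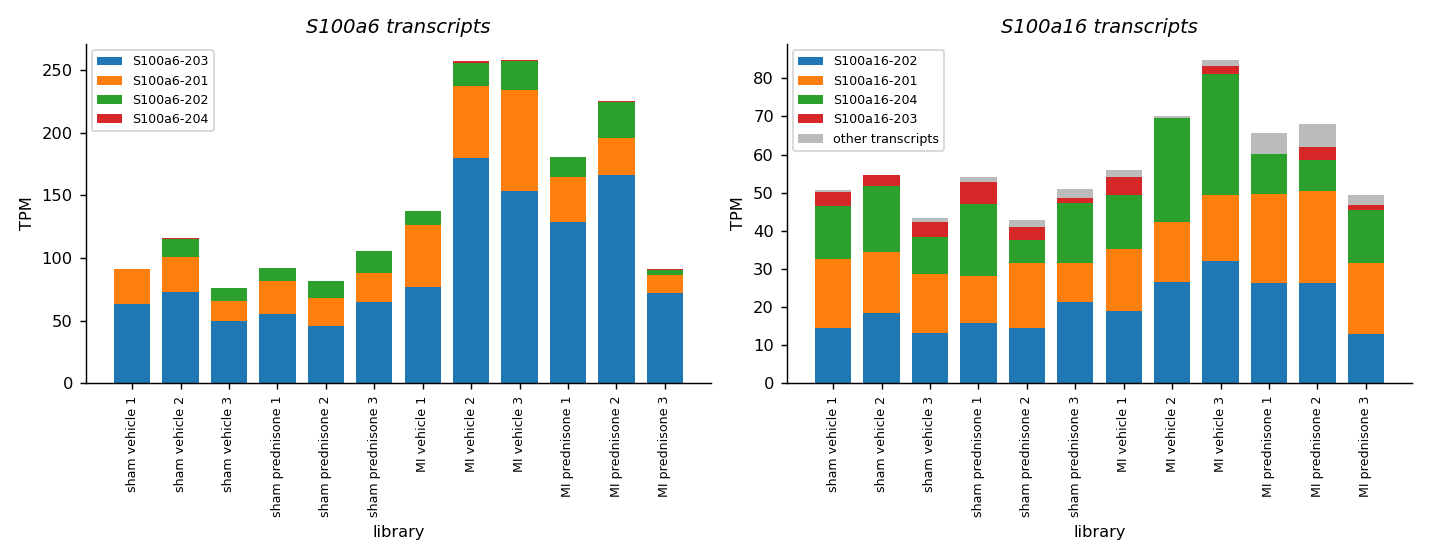
TPM of the transcripts of *S100a6* (left) and *S100a16* (right) stacked in each of the 12 libraries (horizontal axis). S100a6-203 is the largest part of *S100a6* in each bar, at 55.6% to 79.2%, whereas no transcript of *S100a16* exceeds 41.6%.

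Among the receptors of released S100 proteins, all 4 were tested. *Tlr4*, the innate immune receptor for *S100a8* and *S100a9* proteins, rose in MI with vehicle (7.60 ± 2.42 against 3.55 ± 0.448 TPM, SD, n = 3 each; log2 change 0.88, limma adjusted p = 0.0177), a call lost under each of 3 scaling alternatives (0.46 to 0.75, limma adjusted p from 0.0560 to 0.201). It fell with prednisone in MI to 2.82 ± 0.449 TPM (log2 change -1.14, limma adjusted p = 0.00188). *Cd36*, a fatty acid transporter that also binds the calprotectin complex, fell in MI with prednisone (279 ± 77.5 against 664 ± 6.38 TPM in sham, log2 change -1.28, limma adjusted p = 0.00124) and was lower than with vehicle in MI (-1.06, limma adjusted p = 0.00124). *Bsg*, a receptor for *S100a9* protein, was not called. *Ager*, which encodes the receptor for advanced glycation end products and is known for its high level in lung, was at 84.5 TPM in MI vehicle replicate 3, 10.4 and 6.61 TPM in MI prednisone replicates 2 and 3, and at most 2.45 TPM elsewhere.

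Of the annexin and membrane scaffold partners, 5 of 6 were tested, and 3 were called higher in MI with vehicle. Among all genes 15.1% were called higher there. *Anxa1*, the partner of *S100a11*, rose by 1.60 (limma adjusted p = 0.0140), *Anxa2*, the partner of *S100a10*, by 1.36 (limma adjusted p = 0.0201) and *Plat*, the plasminogen activator that the *S100a10* complex binds, by 0.74 (limma adjusted p = 0.0106). With prednisone in MI 4 were called lower, *Anxa1* (-1.05), *Plat* (-0.83), *Ahnak*, a giant scaffold protein (-0.52), and *Anxa6* (-0.47), the last 2 close to the median gene. Among all genes 34.9% were called lower there. *Anxa2* was not called there (-0.62), like *S100a10*, and none of the 5 was called between MI and sham under prednisone.

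All 6 cytoskeletal and other intracellular partners were tested. *Myh9*, the non-muscle myosin that *S100a4* binds, rose in MI with vehicle by 1.04 (limma adjusted p = 0.0335) and was lower with prednisone in MI (-1.16, limma adjusted p = 0.00875). *Cybb* and *Ncf1*, subunits of the phagocyte NADPH oxidase to which calprotectin delivers arachidonic acid, rose by 1.14 and 1.37 and were lower with prednisone (-1.43 and -1.11). *Trp53*, which several S100 proteins bind, rose by 1.08. It was at 11.3, 13.4 and 34.8 TPM in MI vehicle replicates 1 to 3, against 6.55 to 9.61 TPM in sham vehicle. With the 2 libraries richest in airway RNA left out, its change was 0.61 and not called (limma adjusted p = 0.05003). *Myh9* was also highest in MI vehicle replicate 3 (24.2, 31.9 and 65.9 TPM), and it stayed called in that fit (0.63, limma adjusted p = 0.0359). *Cacybp* and *Sugt1*, partners of *S100a6*, were not called in these comparisons.

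Among the cardiomyocyte calcium and energy partners of *S100a1*, none was called higher where it was. With prednisone, 4 of 5 were called lower in MI than in sham, where 14.1% of all genes were called lower: *Ryr2*, the ryanodine receptor (-1.44), *Atp2a2*, the calcium pump (-1.26), *Pln*, its inhibitor (-0.76), and *Atp5a1*, an ATP synthase subunit (-0.40). *Ttn*, the giant sarcomere protein, was called lower in MI with vehicle (-0.67), and *Atp2a2* lower with prednisone in MI (-0.59). *Atp2a2* was at 2936 ± 99.1 TPM in sham prednisone and 1274 ± 428 TPM in MI prednisone (SD, n = 3 each), while *S100a1* was higher in the latter. *Fgf1*, the only tested gene of 3 in the leaderless secretion list and the cargo of *S100a13*, was lower in MI prednisone than in sham prednisone and in MI vehicle (-0.99 in each).

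**Figure D4:**
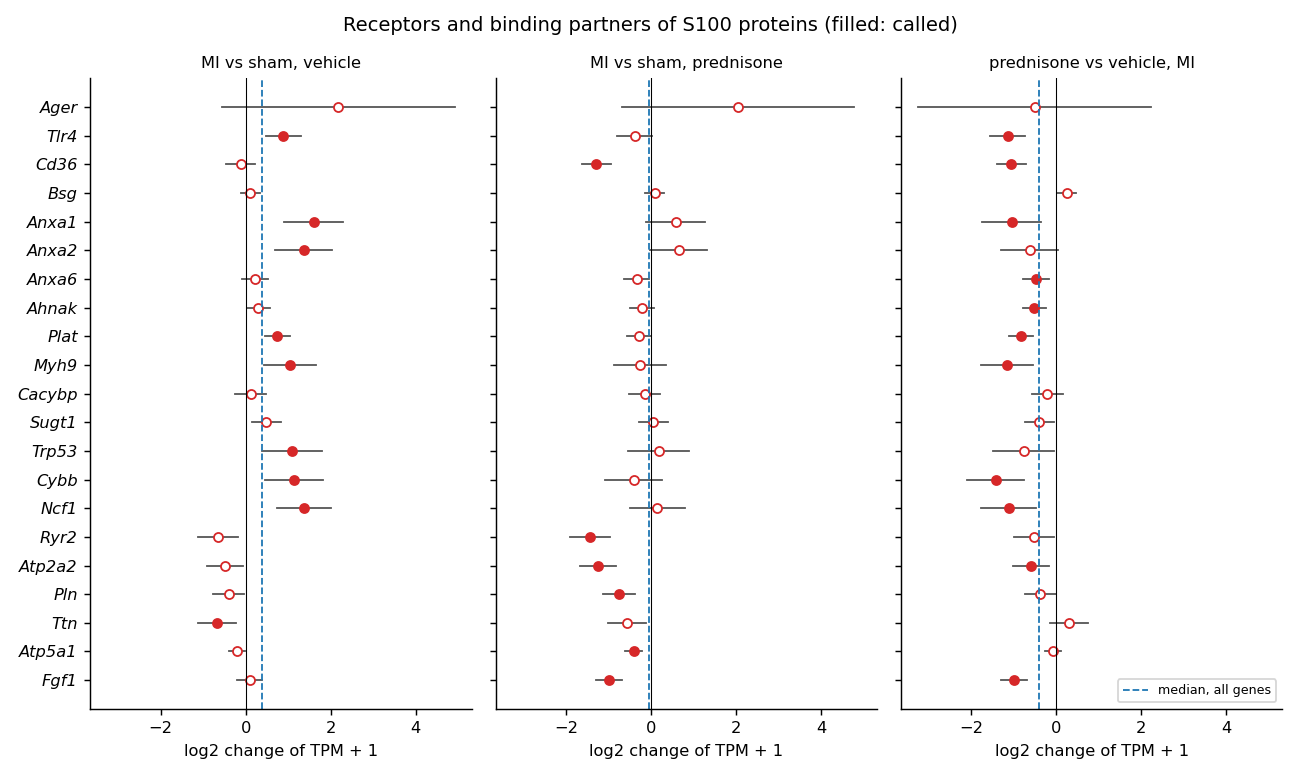
Log2 change (horizontal axis, log2(TPM + 1)) of the 21 tested receptor and partner genes in 3 comparisons, with 95% intervals, filled where limma called them, and a dashed line at the median of all genes. *Anxa1*, *Anxa2*, *Myh9*, *Cybb* and *Ncf1* lie right of the line in MI with vehicle, and the 5 calcium and energy partners (*Ryr2* to *Atp5a1*) lie left of 0 in MI with prednisone.

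Part of these partner calls depended on scaling. After median-ratio rescaling 5 of 9 stayed called in MI with vehicle (*Tlr4*, *Plat*, *Trp53* and *Cybb* did not), 4 of 6 in MI with prednisone (*Pln* and *Atp5a1* did not) and 5 of 11 for prednisone in MI, none with another sign. With the length correction 5, 4 and 1 were called, and for prednisone in MI *Ahnak* and *Atp2a2* turned to 0.13 and 0.01. Without mitochondrial, nuclear-copy and globin rows 7, 6 and 10 were called. With the 2 libraries richest in airway RNA left out 6, 6 and 9 were called, and with 3 left out 6, 6 and 6, in no case with another sign.

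Markers of other cell types moved along with the S100 genes, and their part in the S100 changes was not tested. In MI with vehicle, all 8 fibroblast markers were called higher (summed level 934 to 1269 TPM against 392 to 529 in sham vehicle) and 7 of 8 macrophage markers (609.9 to 1336 against 272 to 389 TPM). So were 5 of 7 endothelial, 3 of 5 mesothelial, 2 of 4 smooth muscle, 1 of 4 atrial and 1 of 4 tested neutrophil markers, while 3 of 8 cardiomyocyte markers were called lower. In that comparison 15.1% of all genes were called higher. With prednisone in MI, 7 of 8 fibroblast markers (343 to 595 TPM) and 6 of 8 macrophage markers (305 to 556 TPM) were called lower, as were 4 of 5 mesothelial, 3 of 7 endothelial and 2 of 4 smooth muscle markers. In the same comparison 2 of 8 cardiomyocyte, 3 of 4 atrial and 1 of 7 endothelial markers were called higher. Among all genes there, 34.9% were called lower and 2.5% higher. In MI against sham with prednisone, where *S100a1* and *S100a13* were called higher, 3 of 8 cardiomyocyte and 3 of 7 endothelial markers were called lower, and 1 of 8 fibroblast, 1 of 4 atrial and 1 of 7 endothelial markers higher. The shares of all genes there were 14.1% lower and 2.73% higher. No glial, adipocyte, lymphocyte or airway marker was called in any of these 3 comparisons. The summed lymphocyte level was nevertheless 229 TPM in MI vehicle replicate 3 and at most 15.7 TPM elsewhere.

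For *S100a8* and *S100a9* the neutrophil list bears directly. Its 9 markers summed to 1.87 to 8.22 TPM in sham libraries, to 10.8, 4.24 and 117 TPM in MI vehicle and to 6.20, 147 and 20.2 TPM in MI prednisone. Most of the high sums was *Ltf*, also an airway gene, at 100.6 TPM in MI vehicle replicate 3, 142 TPM in MI prednisone replicate 2 and 13.5 TPM in replicate 3. *Ly6g*, the defining mouse neutrophil marker, did not pass 0.0785 TPM in any library. The 8 markers other than *Ltf* summed to 1.63 to 4.20 TPM in sham libraries, to 6.38, 4.12 and 16.6 TPM in MI vehicle and to 6.17, 5.28 and 6.68 TPM in MI prednisone, so that 5 of the 6 MI libraries lay above all sham libraries. *Csf3r*, the receptor for granulocyte colony-stimulating factor, was at 2.45, 2.18 and 2.25 TPM in MI prednisone and at most 1.54 TPM in sham libraries. Of the 4 tested neutrophil markers it was the only 1 with MI prednisone above all of sham prednisone, which held for 12.9% of all genes. None of the 4 was called in that comparison. *S100a8* and *S100a9* were highest in MI vehicle replicate 3, as was the sum without *Ltf*. The sum of all 9 markers was highest in MI prednisone replicate 2.

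**Figure D5:**
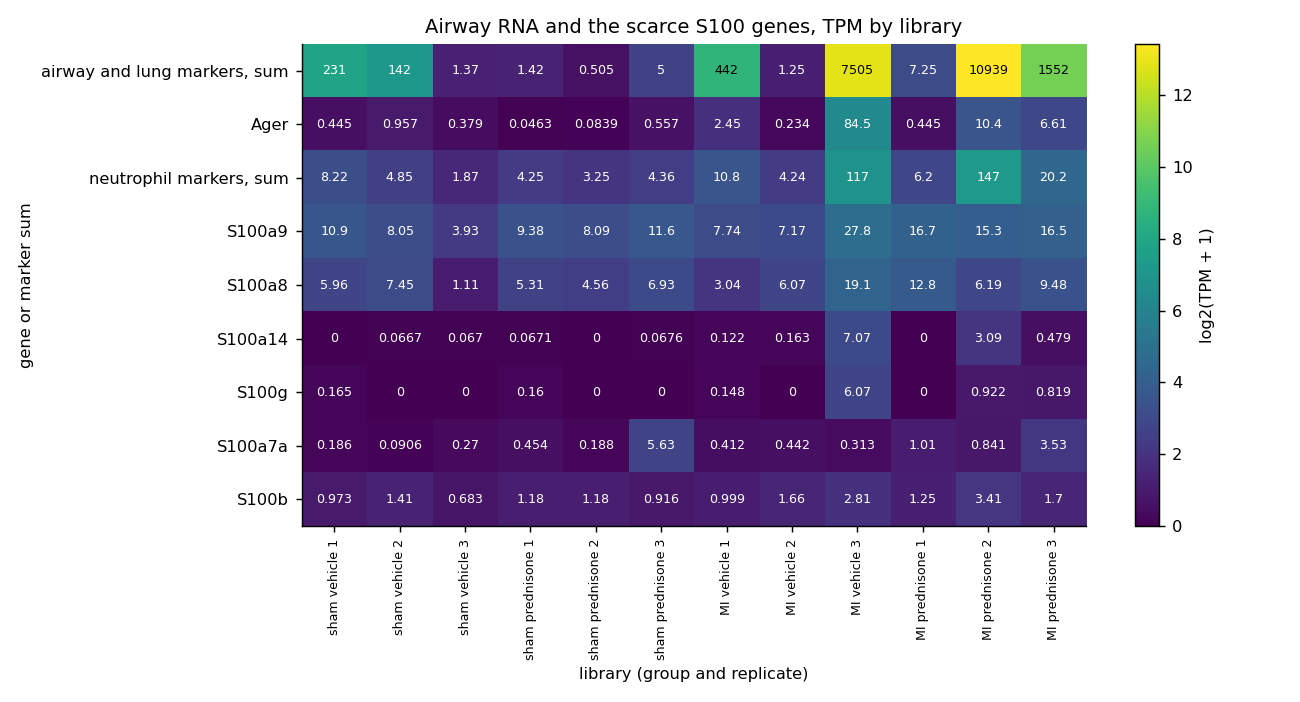
TPM of the summed airway and neutrophil markers, of *Ager* and of 6 low-abundance S100 genes in each of the 12 libraries (horizontal axis), with values printed and colour on a log2(TPM + 1) scale. *S100a14* reaches 7.07 and 3.09 TPM in the 2 libraries with the highest airway sums, 7505 and 10939 TPM.

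The other 8 S100 symbols of the table were scarce. Only *S100b*, the glial form, and *S100a7a* passed the filter, and neither was called in a comparison. *S100b* was at 0.683 to 1.41 TPM in sham libraries, 0.999, 1.66 and 2.81 TPM in MI vehicle and 1.25, 3.41 and 1.70 TPM in MI prednisone. *S100a14*, an epithelial form, was at most 0.163 TPM outside the 3 airway-rich libraries and 7.07, 3.09 and 0.479 TPM in them. *S100g*, the vitamin D-dependent calcium carrier calbindin-D9k, reached 6.07 TPM in MI vehicle replicate 3 and at most 0.922 TPM elsewhere. *S100z* and *S100a2* were above 0 in that library alone (1.27 and 0.768 TPM), *S100a3* did not pass 0.356 TPM, and *S100a5* is listed at 0 throughout.

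Patterns across the 12 libraries were compared by Pearson's r on log2(TPM + 1), as a description, with 8115 other genes of at least 5 TPM on average. Closest to *S100a1* were *Timm10* (r = 0.96), a gene of mitochondrial import, *Ushbp1* (r = 0.95) and *Pgam2* (r = 0.94), a gene of muscle glycolysis. Closest to *S100a6* were *Anxa3* (r = 0.97), *1810037I17Rik* (r = 0.97) and *Crip1* (r = 0.97). Closest to *S100a9* were *Sarnp* (r = 0.91), *Dkk3* (r = 0.91) and its partner *S100a8* (r = 0.90). After median-ratio rescaling *Timm10* and *Pgam2* remained among the first 3 for *S100a1*, and *Crip1* and *Anxa3* for *S100a6*, but *S100a8* was 8th for *S100a9*. The points share the library totals and the 4 group means, and the search was not repeated with the length correction.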

How the data were processed

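RNA was measured in 12 libraries of mouse myocardium, 3 in each of 4 groups taken from the sample titles. The authors deposited TPM values for 105129 transcript rows, each column summing to 1000000. Per the submitters' processing notes Trimmomatic, HISAT2, kallisto and the build mm10 were used; the annotation release is not given in the sources used here. TPM keeps no depth, so the part of counting noise in the spread between libraries is unknown. No detection floor or counting interval can be given. Libraries were stranded, per the labels' protocols, and tissue came from each mouse.

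Transcript values were added up per gene symbol. Genes that reached 1 TPM in 3 or more libraries were kept, taken as log2(TPM + 1), and modelled as 4 group means over all 12 libraries with lmFit and eBayes (with trend) of limma 3.58.1, under R 4.3.3, with Benjamini-Hochberg adjustment over the 13158 genes tested and calls at an adjusted p under 0.05. A fold change on this scale understates the change of low genes. The scripts were tested on simulated data. Coordinates and lengths come from GENCODE M21, which held 94.7% of row identifiers; 90.8% of tested genes had a length. Promoter windows come from RefSeq (GRCm38.p6).

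The S100 genes and the lists of partners and cell type markers were chosen with earlier results of these data known. Named are the 9 genes, other S100 genes that passed the filter, partners called where an S100 gene was, and the 3 genes most like *S100a1*, *S100a6* and *S100a9*; scarce S100 genes, uncalled receptors and markers were named after their values were seen. Alternatives were median-ratio rescaling, no filter, no trend, a pseudocount of 0.1, each gene's top transcript alone, a block for the replicate number, only the compared groups, each library left out, mitochondrial, globin and nuclear-copy rows taken out, and a loess length correction (span 0.5) with and without the block. Leaving out the 2 or 3 libraries richest in airway RNA was added after seeing the data. Same-numbered libraries belong to different animals and did not deviate together.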

Additional observations from a re-analysis of the deposited data

Results flagged for a closer look

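The prednisone effect differed between MI and sham for 6 of the tested receptor and partner genes by the interaction term of limma. These were 2 of 4 receptors, 1 of 5 annexin and membrane scaffold partners and 2 of 6 cytoskeletal and other intracellular partners. None of the 5 calcium and energy partners was called, and the 1 tested leaderless secretion gene was. The effect differed for none of the 9 S100 genes and for 21.3% of all genes tested. The difference, MI minus sham on the log2(TPM + 1) scale, was -1.268 for *Tlr4* (limma adjusted p = 0.0121), -1.163 for *Cd36* (limma adjusted p = 0.00955), -1.024 for *Plat* (limma adjusted p = 0.00868) and -1.079 for *Fgf1* (limma adjusted p = 0.00768). It was -1.291 for *Myh9* (limma adjusted p = 0.0390) and -1.552 for *Cybb* (limma adjusted p = 0.0308). The median over all genes was -0.48, and after median-ratio rescaling none of the 6 was called, with limma adjusted p from 0.0532 for *Cybb* to 0.297 for *Fgf1*. With the length correction none was called either. Without mitochondrial, nuclear-copy and globin rows 5 of the 6 were called (not *Fgf1*, limma adjusted p = 0.0511), and with 2 or 3 airway-rich libraries left out 6 and 5 were. Groups of 3 libraries were not examined for single outlying values.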

How the results depend on the processing

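Depth is unknown, so what these data cannot show is set by 3 libraries a group. Of 1071 recomputed log2 changes of the 9 genes, 907 kept their direction and side of the threshold, 88 lost a call, 22 gained one and 54 changed sign without a call on either side; none changed sign with a call. The cause of the moves was not tested, except that leaving libraries out, or fitting only the compared groups, uses fewer samples.

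For MI against sham with vehicle, where 5 genes were called, 2 were after median-ratio rescaling, 1 without the filter, 2 with the replicate number as a block, 0 with only the compared groups, 2 with the length correction, 1 with that correction and the block, and 2 without the 2 airway-rich libraries; leaving out single libraries gave 0 to 6. For MI against sham with prednisone, where 2 were called, the counts were 5 after rescaling, 1 without the filter, 0 without the trend, 1 with the block, 4 with only the compared groups and 1 with length correction and block, and 0 to 4 without single libraries. For prednisone in MI, where 2 were called, the counts were 0 with only the compared groups, 0 with the length correction with or without the block, 1 without either 2 or 3 airway-rich libraries, and 1 to 3 without single libraries. In sham the count stayed 0, and for the interaction 0 to 1.

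The block also gave 2 genes for prednisone in MI. Same-numbered libraries share no animal, and the mean correlation of their deviations was -0.37, -0.05, -0.25 and 0.00 in the comparisons between groups. Over all genes the counts of calls ranged from 2 to 5631 (2100 as reported), 967 to 3971 (2213), 808 to 6274 (4917), 4 to 20 (15) and 109 to 4520 (2797 for the interaction). With the length correction all genes split into 329 higher and 332 lower, 592 and 963, 1052 and 925, 4 and 11, and 106 and 139 in these 5 comparisons, against 1981 and 119, 359 and 1854, 329 and 4588, 7 and 8, and 71 and 2726 without it. Removing mitochondrial, globin and nuclear-copy rows gave 1263 and 272 for the first. Fitting only the compared groups was not run for the interaction, which needs all 4.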

Other observations

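Ratios within a library do not depend on its scaling, but the ratios here were not corrected for transcript length. That length, weighted by TPM over transcripts, was 685 bases for *S100a10* and 1427 bases for *Anxa2*. The ratio of *S100a10* to its partner *Anxa2*, both in TPM, was 1.00, 0.927 and 0.870 in MI vehicle, against 1.13 to 1.35 in the 6 sham libraries and 1.32, 0.993 and 1.30 in MI prednisone. The ratio of *S100a9* to *S100a8* ran from 1.08 to 3.54 over the 12 libraries, both ends being sham vehicle libraries. The ratio of *S100a13* to *S100a1* was 0.0394 to 0.0497 in sham libraries, 0.0567, 0.0553 and 0.102 in MI vehicle and 0.0653, 0.0669 and 0.0466 in MI prednisone. A short noncoding transcript of *S100a7a*, S100a7a-202, was listed at 5.45 TPM in sham prednisone replicate 3 and 3.21 TPM in MI prednisone replicate 3, and at 0 in the other 10 libraries. No test was made of these values.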
